A study of Mus musculus with 10 samples.

Results

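The transcripts described here encode 8 cell surface receptors that are related to the CSF1 receptor by structure or by the growth factors they bind. Kit, Flt3, Pdgfra and Pdgfrb are the class III receptor tyrosine kinases other than Csf1r. Csf2ra, Csf2rb, Csf2rb2 and Csf3r encode the receptor chains for GM-CSF, IL-3 and G-CSF. The genes were chosen by name and not by a cutoff on their values, though earlier results of these data were known. Of 46152 genes counted, 28419 passed the filter on low counts (at least 3 libraries above 1 CPM, that is, counts scaled to a common library size). All 8 receptors passed it. Bulk RNA-seq was done on CD11b+ brain cells of male and female C57BL/6J mice, young adults without a transgene or injury. In the Vehicle group 5 mice were gavaged with the carrier (0.1% Tween 80 and 0.5% hydroxymethyl propyl-cellulose), and in the GW2580 group 5 mice received GW2580, a kinase inhibitor directed at CSF1R, in the same carrier at 80 mg/kg/d. Both groups were treated for 8 days and held 2 male and 3 female mice, with 1 library per mouse. The CD11b selection also retains other CD11b+ myeloid cells, such as granulocytes and monocytes.

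Class III receptor kinases carry extracellular immunoglobulin-like domains and a split kinase domain, pair when a dimeric ligand binds, and signal through PI3-kinase, phospholipase C gamma and Ras. Kit is known from mast cells and blood stem cells, Flt3 from dendritic cell precursors, Pdgfra from oligodendrocyte precursors and fibroblasts, and Pdgfrb from pericytes. The GM-CSF receptor joins a ligand-binding alpha chain, Csf2ra, to a shared beta chain, Csf2rb, which signals through JAK2 and STAT5. Mice have a second beta chain, Csf2rb2, that serves IL-3. Csf3r pairs with itself, signals through STAT3 and is abundant on neutrophils.

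The libraries held 12550418 to 20854218 assigned fragments in the Vehicle group and 13228819 to 26079343 in the GW2580 group. Because cDNA was amplified without molecular identifiers, counts are not independent molecules, and p-values measure the spread between mice. On the first principal component of log2 CPM, which held 47.1% of the variance, Vehicle 5 (score 77.9) lay on the side of most treated libraries and GW2580 5 (score -45.8) on the side of Vehicle 1 to 4 (-40.5 to -35.0). Calls that rest on Vehicle 5, and the log2 fold changes of the receptors it moves most, are given with and without it. The microglial markers Tmem119 and Cx3cr1 were abundant in every library, and the summed level of 8 microglial markers was lowest in Vehicle 5 (11900 CPM) and highest in GW2580 3 (55905 CPM). With treatment as the only term, edgeR called 10.7% of the tested genes at the study's rule of a fold over 2 and an unadjusted p under 0.05. Of the tested genes 4.01% were called higher and 6.7% lower with GW2580. Higher calls made up 37.5% of the calls, and 70.8% when libraries were scaled by total count alone, which moved the median log2 fold change of all genes from -0.03 to 0.23. An unadjusted p under 0.05 was reached by 14.7% of genes (4186). The edgeR quasi-likelihood test gave 0% of genes a Benjamini-Hochberg adjusted p under 0.05, with 0.280 as the smallest, whereas the edgeR likelihood ratio test gave 53 genes, DESeq2 177 and limma-voom 0. With both Vehicle 5 and GW2580 5 left out, a choice made after their positions were seen, the same quasi-likelihood test called 22.3% of the genes and gave 4844 an adjusted p under 0.05. Without Vehicle 5 alone it called 12.9% and gave 0 genes such a p.

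In vehicle-treated mice Csf3r, Csf2ra and Csf2rb stood above the kinases at the level per kilobase of exon. Length was taken as all annotated exon bases of a gene, 9464 for Csf2ra and 5848 for Csf3r. A transcript can hold fewer of these bases, so the order between genes of different length is approximate. Csf3r was the most abundant at 47.0 ± 14.1 CPM per kilobase (SD, n = 5), followed by Csf2ra at 19.7 ± 2.02 and Csf2rb at 10.8 ± 3.59. Csf2rb2 (3.55 ± 2.57) and Flt3 (3.19 ± 0.703) came next. Pdgfrb (1.87 ± 1.41), Kit (1.85 ± 1.98) and Pdgfra (1.49 ± 1.11) were the lowest. For reference, Csf1r stood at 743 ± 362 CPM per kilobase on the same scale. Of uniquely aligned fragments, 47.7 to 59.8% in Vehicle and 47.1 to 70.8% in GW2580 libraries lay on no annotated exon. The part of such background reads in the level of the lowest receptors was not tested.

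Most steps of this order held within single libraries. Csf3r exceeded Csf2ra, and Csf2rb exceeded Csf2rb2, in all 5 libraries of either group. Csf2ra exceeded Csf2rb in 5 Vehicle and 3 GW2580 libraries. The pairs that did not separate were Csf2rb2 over Flt3, in 2 Vehicle and 3 GW2580 libraries, and Kit over Pdgfra, in 1 Vehicle and 0 GW2580 libraries. Without Vehicle 5 both orders turned in the vehicle means, to Flt3 (2.96 ± 0.574 CPM per kilobase, SD, n = 4) over Csf2rb2 (2.43 ± 0.646) and Pdgfra (0.994 ± 0.0533) over Kit (0.961 ± 0.0322).

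**Figure D1:**
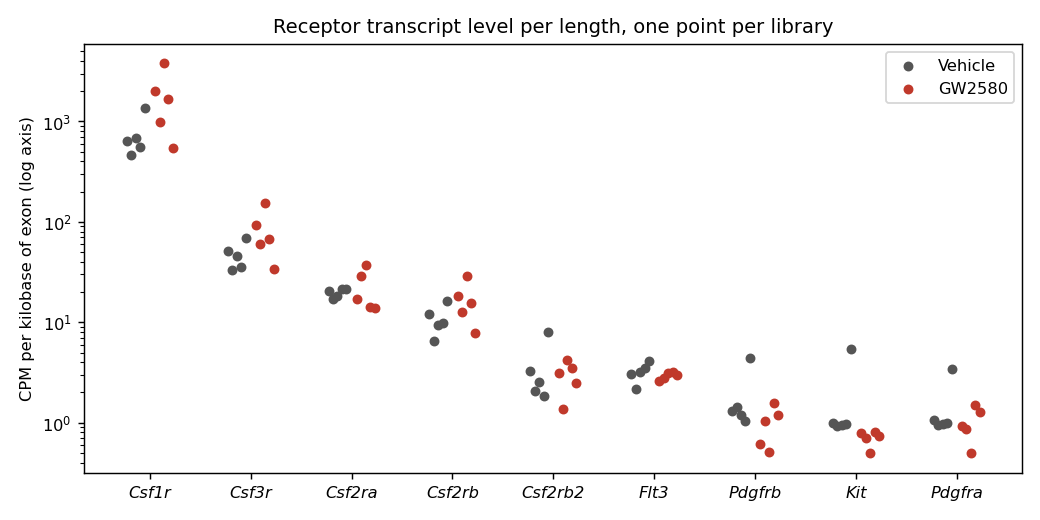
Level of each receptor transcript in CPM per kilobase of exon, on a log axis, with 1 point per library in Vehicle (grey) and GW2580 (red). Csf3r, Csf2ra and Csf2rb lie between Csf1r and the lower group of Csf2rb2, Flt3, Pdgfrb, Kit and Pdgfra, and Vehicle 5 is the high grey point of Csf2rb2, Pdgfrb, Kit and Pdgfra.

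Of the 8 receptors only Kit met the call rule, as lower with GW2580, beside 6.7% of all tested genes called in that direction. In log2 fold change 3 of the 8 receptors lay above 0 and the median was -0.19, beside -0.03 over all genes tested. No receptor had an adjusted p under 0.05 in this edgeR fit, where no tested gene had one.

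Kit, the receptor for stem cell factor, lies on chr5:75574987-75656722, plus strand of GRCm38.p6. In the Vehicle group it stood at 5.49, 5.11, 5.18, 5.40 and 29.7 CPM in mice 1 to 5 (76, 73, 62, 94 and 529 fragments). In the GW2580 group it stood at 4.31, 3.89, 2.72, 4.40 and 4.06 CPM (84, 59, 49, 93 and 60 fragments). All 5 treated libraries lay below all 5 vehicle libraries, a separation in either direction seen for 3.03% of the tested genes, but the gap was narrow, from 4.40 to 5.11 CPM, and Vehicle 5 was 5.61 times the mean of the other vehicle libraries. The log2 fold change was -1.39 ± 0.51 (SE), and edgeR's p was under 0.05 before adjustment and 0.280 after it. The two-sided exact permutation test over all ways to split the 10 libraries 5 against 5 gave p = 0.00794, the smallest it can give. Without Vehicle 5 the vehicle mean was 5.29 ± 0.177 CPM (SD, n = 4), the log2 fold change was -0.45 and edgeR's adjusted p was 0.315. Kit then remained lower in each treated library than in each vehicle library but no longer met the call rule. The separation holds on CPM scaled by TMM, which the permutation test also used. Per assigned fragment, GW2580 4 (93 Kit fragments of 13228819) stood above Vehicle 4 (94 of 17913818), so the groups overlapped. With libraries scaled by total count alone, the log2 fold change was -1.02 (edgeR adjusted p = 0.359), without a call. In bulk RNA a smaller number of Kit-expressing cells and less Kit RNA per cell cannot be told apart.

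The promoter window of Kit is shown because Kit was the receptor that met the call rule. The window spans 250 bases before to 50 bases after the transcript start, at chr5:75574737-75575036 on the plus strand, and comes from RefSeq on GRCm38.p6. Capitals mark GAGGAA, the core letters bound by the myeloid factor PU.1, which was searched on both strands together with the RUNX letters TGTGGT.
Kit promoter: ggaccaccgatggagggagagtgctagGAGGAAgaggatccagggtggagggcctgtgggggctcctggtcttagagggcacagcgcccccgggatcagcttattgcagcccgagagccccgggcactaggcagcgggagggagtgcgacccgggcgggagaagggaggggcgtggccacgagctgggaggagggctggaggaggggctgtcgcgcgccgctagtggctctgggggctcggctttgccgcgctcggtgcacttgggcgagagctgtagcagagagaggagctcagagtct
GAGGAA or its reverse complement occurred in the windows of 4 of 6 receptors read (Kit, Csf2ra, Csf2rb2 and Csf3r), beside 28.3% of all 32851 RefSeq windows of this length. TGTGGT or its reverse complement occurred in 0 of the 6, beside 16.8% of all windows. These matches are letters in a window and were not tested as binding sites.

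Some markers of mast cells, which depend on Kit, were high in the same library. The mast cell tryptase Tpsb2 stood at 106 CPM in Vehicle 5 and between 2.17 and 10.01 CPM in the other vehicle libraries. The chymase Cma1 stood at 36.5 CPM in Vehicle 5 and between 1.95 and 4.69 CPM in the others. Carboxypeptidase Cpa3 stood at 30.8 CPM there, against 1.15 to 3.29 CPM. Of the 7 mast cell markers, Tpsb2 and Cma1 were called lower and the IgE receptor chain Fcer1a was called higher with GW2580. Over all tested genes 6.7% were called lower and 4.01% higher. Without Vehicle 5, Tpsb2 (log2 fold change -0.77) and Cma1 (-1.19) did not meet the call rule, and Fcer1a (1.48) and Ms4a2, another IgE receptor chain, were called higher. Hdc, histidine decarboxylase, was not high in Vehicle 5 (27.8 CPM, against 112 CPM in Vehicle 1), and Fcer1a and Ms4a2 were higher in GW2580 1 (3.39 and 11.6 CPM) than in Vehicle 5 (2.19 and 9.94 CPM). The summed level of the list ran from 30.7 to 224 CPM in the Vehicle group and from 31.1 to 174 CPM in the GW2580 group, where Hdc supplied most of it. The part of these cells in the Kit result was not tested.

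**Figure D2:**
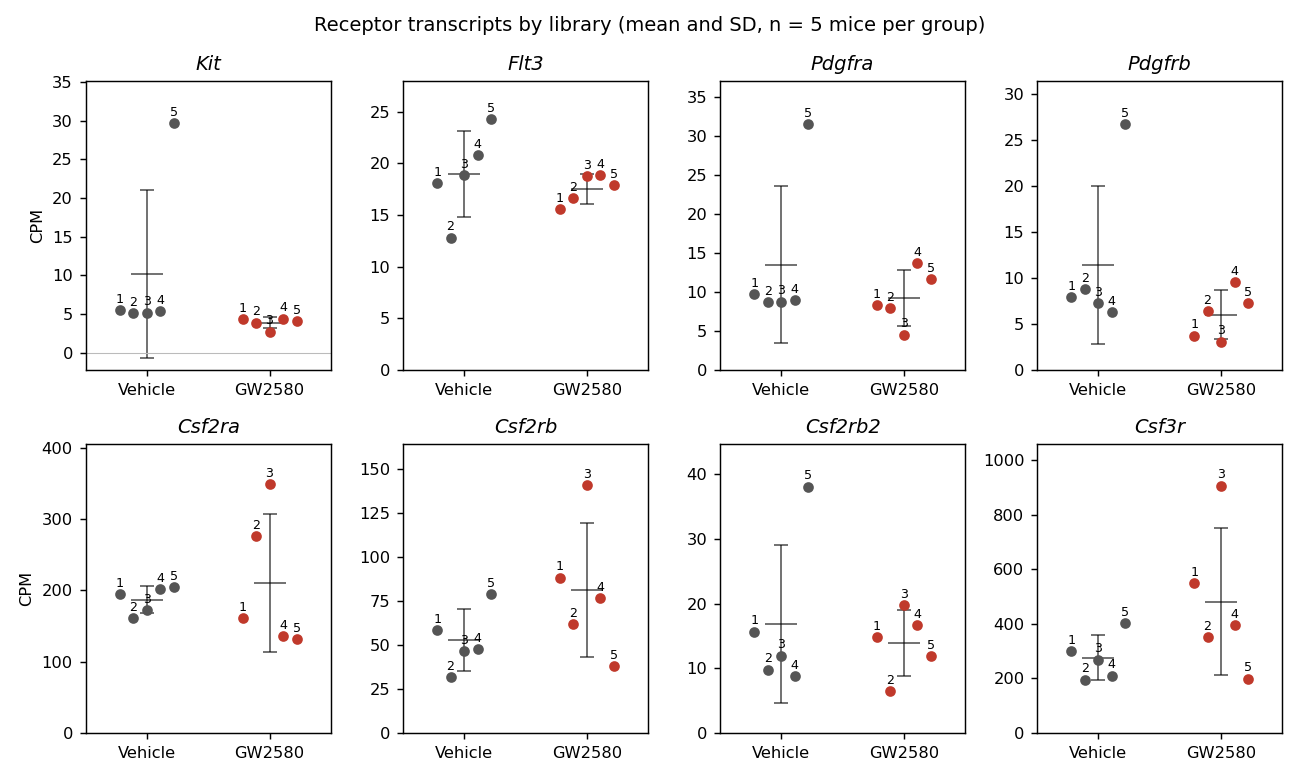
CPM of the 8 receptors by library, with the mouse number beside each point and the mean and SD (n = 5) of each group as bars. For Kit all treated points lie below all vehicle points, and Vehicle 5 stands far above the other vehicle libraries for Kit, Pdgfra, Pdgfrb and Csf2rb2.

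Flt3, the receptor for FLT3 ligand on dendritic cell precursors, lies on chr5:147330741-147400489, minus strand. It stood at 18.1, 12.8, 18.9, 20.8 and 24.3 CPM in the vehicle libraries and at 15.6, 16.6, 18.7, 18.9 and 17.9 CPM in the treated ones. The treated values all fell inside the vehicle range, and the log2 fold change was -0.11 ± 0.26 (edgeR adjusted p = 0.858, exact permutation p = 0.603). Counting was without strand, and 270 of the 5954 exonic bases of Flt3 are shared with the opposite-strand gene Gm26597, so fragments there cannot be told apart. Of 6 dendritic cell markers, only the transcription factor Zbtb46 was called, as higher, beside 4.01% of all tested genes. It stood at 3.26 to 10.6 CPM in vehicle and 10.9 to 17.6 CPM in treated libraries. Without Vehicle 5 its log2 fold change was 0.83, under the fold of the rule, and Batf3 was called lower (-1.17). The summed level of these markers was 86.4 to 139 CPM in vehicle and 65.0 to 154 CPM in treated libraries.

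Pdgfra, which binds PDGF-A and PDGF-C, lies on chr5:75151322-75198206, plus strand, 376780 bases from Kit. It stood at 9.74, 8.68, 8.77, 8.96 and 31.5 CPM in the vehicle libraries. In the treated libraries it stood at 8.37, 7.91, 4.56, 13.7 and 11.6 CPM. The groups overlapped, and the log2 fold change was -0.55 ± 0.43 (edgeR adjusted p = 0.554, exact permutation p = 0.452). Without Vehicle 5, 3.49 times the mean of the other vehicle libraries, the log2 fold change was 0.03.

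Pdgfrb, the PDGF-B receptor of pericytes, lies on chr18:61045127-61085067, plus strand, 20504 bases from Csf1r. It stood at 7.94, 8.82, 7.27, 6.32 and 26.7 CPM in the vehicle libraries and at 3.75, 6.39, 3.11, 9.56 and 7.31 CPM in the treated ones. GW2580 1 and GW2580 3 lay below every vehicle library, and the other treated libraries fell inside the vehicle range. The log2 fold change was -0.92 ± 0.45 (edgeR adjusted p = 0.356, exact permutation p = 0.167), and -0.33 without Vehicle 5. The call rule was met for Pdgfrb, with log2 fold changes of -1.05, -1.07 and -1.14, when Vehicle 3, Vehicle 4 or GW2580 4 was left out in turn.

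Summed markers of the cells in which these PDGF receptors are known to be expressed were also highest in Vehicle 5, though not every marker was. Cspg4 (5.22 CPM) was lowest of the vehicle libraries there, Gpr17 (0.562 CPM) and Lum (0.0562 CPM) were lowest of all 10 libraries, and C1ql1 was highest in Vehicle 2. The summed level of 7 oligodendrocyte precursor markers was 155 CPM there, 117 CPM in Vehicle 2 and 19.6 to 26.6 CPM in the other vehicle libraries, against 20.9 to 60.2 CPM in treated libraries. Olig2, Sox10 and C1ql1 of this list were called lower, and none of them met the rule without Vehicle 5 (log2 fold changes -0.72, -0.94 and -1.26). Over all tested genes 6.7% were called lower. Olig2, a transcription factor of the oligodendrocyte lineage, stood at 17.7 CPM in Vehicle 5 and between 0.517 and 4.06 CPM in the other vehicle libraries. The summed level of 5 fibroblast markers was 242 CPM in Vehicle 5 and 26.5 to 47.7 CPM in the other vehicle libraries, against 17.6 to 32.3 CPM in treated libraries. The collagen genes Col1a1, Col1a2 and Col3a1 of this list were called lower, and none of them met the rule without Vehicle 5 (-0.72, 0.33 and -0.51). Of the 7 mural cell markers none was called. Their summed level was 147 CPM in Vehicle 5, 65.3 to 89.5 CPM in the other vehicle libraries and 53.1 to 94.3 CPM in treated libraries. Vtn supplied 87.2 CPM of the sum in Vehicle 5 and stood at 6.78 to 15.8 CPM in the other vehicle libraries. Kcnj8 (19.9 CPM) was also highest there. Rgs5 (2.30 CPM), Abcc9 (7.64 CPM) and Myh11 (11.3 CPM) were lowest of the vehicle libraries there, and Acta2 and Notch3 were neither highest nor lowest of them. The endothelial marker Cldn5 had 0 fragments in all libraries. With the mean of astrocyte, oligodendrocyte precursor and neuron markers as a covariate, the log2 fold change was -0.19 for Pdgfra, -0.48 for Pdgfrb and -0.79 for Kit. The part of fibroblasts and mural cells in these values was not tested.

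**Figure D3:**
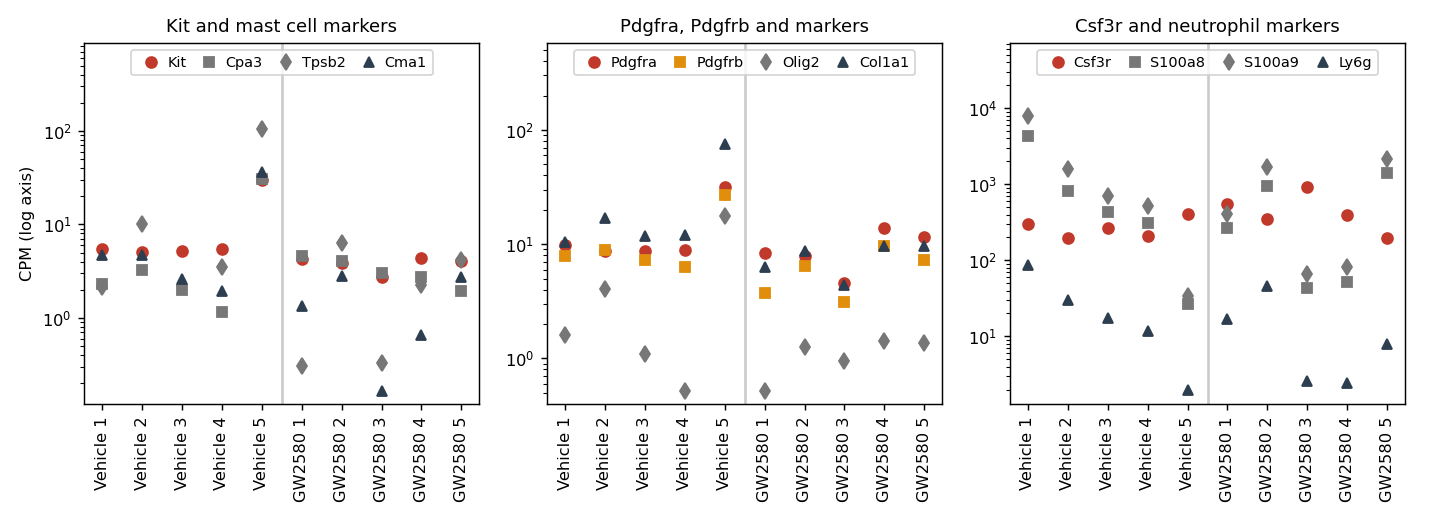
CPM by library on a log axis of Kit with the mast cell markers Cpa3, Tpsb2 and Cma1 (left), of Pdgfra and Pdgfrb with Olig2 and Col1a1 (middle), and of Csf3r with the neutrophil markers S100a8, S100a9 and Ly6g (right). Kit, Pdgfra and Pdgfrb and the markers plotted with them peak in Vehicle 5, whereas Csf3r is highest in GW2580 3, where S100a8 and S100a9 are low.

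Csf2ra, the GM-CSF binding chain, lies on chr19:61217191-61228461, minus strand. In vehicle libraries it kept to a narrow range of 194, 161, 172, 202 and 204 CPM. In treated libraries it was spread over 161, 275, 349, 135 and 131 CPM, with GW2580 2 and 3 above and GW2580 4 and 5 below every vehicle library. The log2 fold change was 0.17 ± 0.35 (edgeR adjusted p = 0.839, exact permutation p = 0.825) and turned to -0.08 without GW2580 3.

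Csf2rb, the shared beta chain, lies on chr15:78325800-78351001, plus strand, and Csf2rb2, the IL-3 beta chain, lies 20078 bases away on chr15:78282507-78305721, minus strand. Both sequences are shown because the genes are near copies of each other. Their longest coding sequences in GENCODE M21 were identical at 95.2% of 2631 aligned bases, and the longest identical run was 242 bases. Of the 150-base stretches of the Csf2rb transcript 3.58% also occurred in Csf2rb2, and of the 50-base stretches 18.9%. In the opening 60 coding bases, given below 5′ to 3′ from the start codon, the capital marks the 1 base that differs.
Csf2rb: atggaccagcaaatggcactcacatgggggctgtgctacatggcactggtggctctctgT
Csf2rb2: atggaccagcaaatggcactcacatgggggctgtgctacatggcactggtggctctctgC
Only uniquely aligned fragments were counted, so fragments wholly in stretches identical in both genes were left out of both counts. How far this lowered the count of each gene was not tested.

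Csf2rb stood at 58.5, 31.6, 46.3, 47.6 and 78.8 CPM in the vehicle libraries and at 88.1, 61.9, 140.4, 76.4 and 38.1 CPM in the treated ones. GW2580 1 and GW2580 3 exceeded every vehicle library, and GW2580 5 lay below all vehicle libraries but Vehicle 2. The log2 fold change was 0.62 ± 0.38 (edgeR adjusted p = 0.445, exact permutation p = 0.183). It was 0.33 without GW2580 3 and 0.82 (edgeR adjusted p = 0.213) without Vehicle 5. Csf2rb2 stood at 15.7, 9.80, 11.95, 8.73 and 38.1 CPM in vehicle and 14.8, 6.46, 19.8, 16.7 and 11.9 CPM in treated libraries, and the groups overlapped. Its log2 fold change was -0.27 ± 0.43 (edgeR adjusted p = 0.786, exact permutation p = 0.770), and 0.28 without Vehicle 5. Per kilobase, Csf2rb exceeded Csf2rb2 by 2.01 times in Vehicle 5, by 3.14 to 5.30 times in the other vehicle libraries, and by 3.10 to 9.33 times in treated libraries.

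Csf3r, the G-CSF receptor, lies on chr4:126023441-126044975, plus strand. It stood at 299.5, 195, 269, 209.9 and 401 CPM in the vehicle libraries (2792 to 7145 fragments). In the treated libraries it stood at 549, 351, 907, 396 and 199 CPM (2935 to 16316 fragments). GW2580 1 and GW2580 3 exceeded every vehicle library, whereas GW2580 5 lay near the lowest of them, Vehicle 2. The log2 fold change was 0.80 ± 0.42 (edgeR adjusted p = 0.380, exact permutation p = 0.143). It was 0.44 (edgeR adjusted p = 0.610) without GW2580 3 and 0.98 (adjusted p = 0.208) without Vehicle 5. With both Vehicle 5 and GW2580 5 left out, a choice made after their positions were seen, it was 1.07 (edgeR adjusted p = 0.0655), and Csf3r then met the call rule while Kit did not, in a fit that called 22.3% of all genes. Csf3r (1.01) also met the rule, and Kit (-0.95) did not, with the share of reads on no annotated exon as a covariate, a fit that called 6.09% of all genes.

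Csf3r is abundant on neutrophils. The library highest in Csf3r was GW2580 3, and that highest in the summed neutrophil markers was Vehicle 1. The calprotectin genes S100a8 and S100a9 were highest in Vehicle 1 (4273 and 7991 CPM), where Csf3r stood at 299.5 CPM. In GW2580 3, with the highest Csf3r, they stood at 43.3 and 65.6 CPM, and the granulocyte surface marker Ly6g at 2.61 CPM. None of the 8 neutrophil markers was called with all libraries, and Retnlg was called lower (log2 fold change -1.95) without Vehicle 5. Their median log2 fold change was -1.01, and their summed level ran from 496 to 27640 CPM in the Vehicle group and from 761 to 13266 CPM in the GW2580 group. With the mean of these markers as a covariate the log2 fold change of Csf3r was 0.68 (edgeR adjusted p = 0.425). The part of neutrophils in the level of Csf3r was not tested. Of 5 monocyte markers 1 was called, Plac8, as lower, beside 6.7% of all tested genes. Ly6c2 and Ccr2 were not, but Ly6c2 was called lower (-1.67) without Vehicle 5.

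The promoter window of Csf3r is shown for comparison with that of Kit, with GAGGAA in capitals. It spans chr4:126024409-126024708 on the plus strand of GRCm38.p6 in RefSeq and lies inside the annotated span of the gene, at the start of a shorter transcript.
Csf3r promoter: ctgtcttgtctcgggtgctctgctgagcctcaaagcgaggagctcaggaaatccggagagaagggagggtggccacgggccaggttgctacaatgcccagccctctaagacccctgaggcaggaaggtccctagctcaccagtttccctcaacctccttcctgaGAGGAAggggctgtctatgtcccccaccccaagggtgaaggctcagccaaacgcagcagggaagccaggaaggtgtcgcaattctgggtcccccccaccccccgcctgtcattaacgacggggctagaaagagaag
The window held 1 match to GAGGAA. No window was available for Csf2rb, and Pdgfrb was left out by choice and not searched, so the counts over 6 receptors hold neither.

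**Figure D4:**
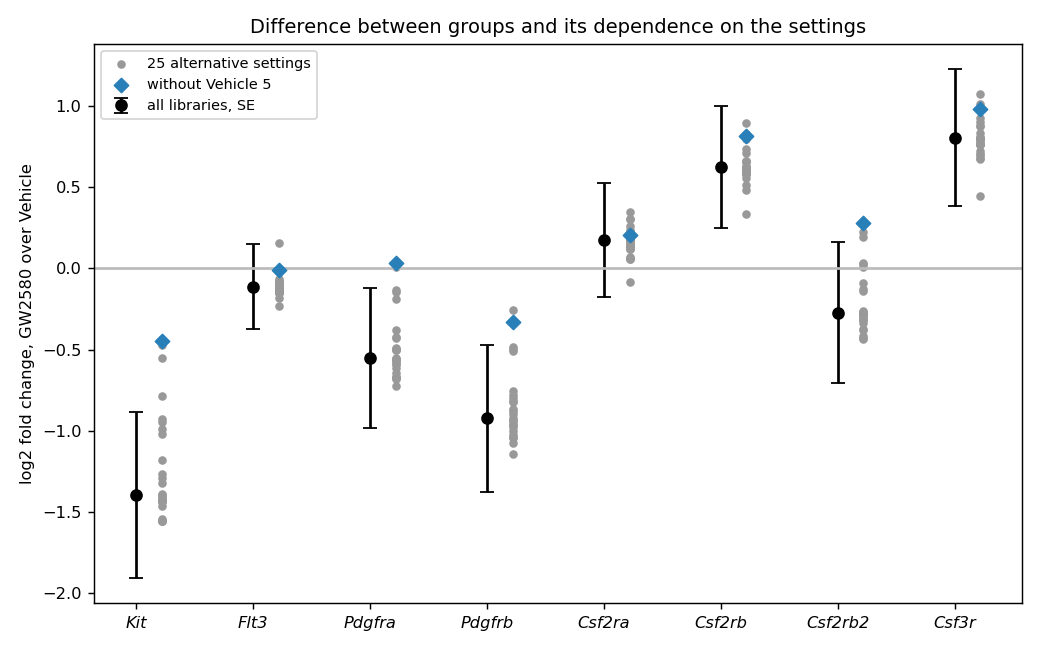
Log2 fold change of each receptor, GW2580 over Vehicle, from all 10 libraries with its SE (black) and under 25 alternative settings (grey), with the fit without Vehicle 5 as blue diamonds. Leaving out Vehicle 5 moves Kit from -1.39 to -0.45 and Csf3r from 0.80 to 0.98, and brings Pdgfra to 0.03 and Csf2rb2 to 0.28.

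Csf3r and Csf2rb varied together with Csf1r from mouse to mouse. Over the 10 libraries, log2 CPM of Csf3r correlated with that of Csf1r at Pearson's r = 0.98 (permutation p = 1e-05, the smallest 100000 permutations can give) and Spearman's rho = 0.98 (permutation p = 4e-05). For Csf2rb r was 0.96 (permutation p = 2e-05) and rho 0.95 (permutation p = 0.00011). Adjusted over the 8 receptors, p for r was 8e-05 for both. With GW2580 1 and GW2580 3 left out, as the most extreme in Csf1r, r was 0.93 for Csf3r and 0.91 for Csf2rb. After removal of the group means it was 0.97 and 0.96. Such values were uncommon among the 10935 other genes of at least 10 CPM, of which 0.759% reached the r of Csf3r with Csf1r and 1.68% that of Csf2rb. Genes in 1 library share its scaling factor, so ratios of raw fragments are given too. Csf3r amounted to 12.1, 10.8, 10.2, 9.74 and 7.54 fragments per 100 of Csf1r in Vehicle 1 to 5, and to 6.97, 9.16, 6.19, 6.10 and 9.43 in GW2580 1 to 5. Vehicle 5 lay among the treated libraries on this ratio, and GW2580 2 and 5 lay closest to Vehicle 4. Csf2rb amounted to 2.35, 1.75, 1.76, 2.21 and 1.48 fragments per 100 of Csf1r in Vehicle 1 to 5. In GW2580 1 to 5 it amounted to 1.12, 1.61, 0.958, 1.18 and 1.81.

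Over the 10 libraries the other 6 receptors had lower correlations with Csf1r. For Csf2rb2, r with Csf1r was 0.52 (permutation p = 0.127, adjusted p = 0.338) and rho 0.62 (permutation p = 0.0602), and r was 0.71 after removal of the group means. For Csf2ra, r was 0.47 (permutation p = 0.176) and rho 0.42 (permutation p = 0.233). The r of the kinases ran from 0.22 for Flt3 down to -0.32 for Pdgfrb, with unadjusted permutation p from 0.385 to 0.858. In the Vehicle group r was 0.94 for Kit, 0.79 for Flt3, 0.95 for Pdgfra, 0.89 for Pdgfrb, 0.58 for Csf2ra and 0.95 for Csf2rb2. There it was 0.94 for Csf3r and 0.89 for Csf2rb, and Vehicle 5 held the highest Csf1r. In the GW2580 group r was -0.57, 0.15, -0.65, -0.67, 0.54 and 0.66 in the same order. Csf3r had 0.98 and Csf2rb 0.99 there. Without GW2580 1 and GW2580 3, r of the 6 was 0.40, 0.51, 0.62, 0.55, 0.10 and 0.53.

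**Figure D5:**
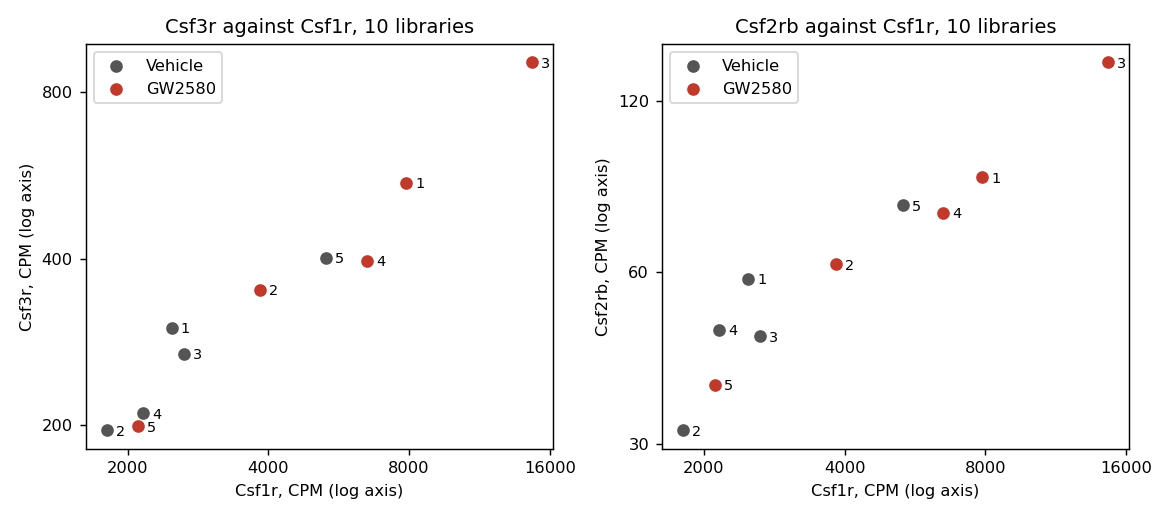
CPM of Csf3r (left) and Csf2rb (right) against CPM of Csf1r on log axes, with 1 point per library numbered by mouse in Vehicle (grey) and GW2580 (red). Vehicle 5 lies beside GW2580 4, GW2580 5 lies among Vehicle 2 to 4, and GW2580 3 is the highest for all 3 genes.

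By the same measure over the 10 libraries, the genes most like each receptor in pattern were found among the genes of at least 10 CPM, and their r is a description without a test. They were Tox and Nfasc for Kit (r = 0.98 for both), Gm34414 (0.94) for Flt3, Cspg4b (0.99) and Arhgap28 (0.96) for Pdgfra, and Col18a1 and Zfp423 (0.98 for both) for Pdgfrb. They were Dok3 and Mfsd10 (0.99 for both) for Csf2ra, Etv6 (0.98) and Pik3cb (0.97) for Csf2rb, Garre1 (0.95) and Ing5 (0.94) for Csf2rb2, and Naa40 and Arhgap17 (0.99 for both) for Csf3r. Kit, Pdgfra, Pdgfrb and Csf2rb2 peaked in Vehicle 5, and the likeness was not computed without that library.

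Of the 10 ligands of these receptors 8 passed the filter, 2 were called lower and 0 higher, and 2 had a log2 fold change above 0. The median was -0.81. Over all tested genes 6.7% were called lower and 4.01% higher, 48.4% lay above 0 and the median was -0.03. The called ligands were Pdgfc, a ligand of Pdgfra, and Csf2, which encodes GM-CSF. Pdgfc stood at 2.09, 2.59, 1.34, 1.15 and 15.6 CPM in vehicle and at 1.04 to 1.69 CPM in treated libraries, with a log2 fold change of -1.70 ± 0.66 (edgeR adjusted p = 0.281). The groups overlapped but for Vehicle 5, without which the log2 fold change was -0.35 and no call was made. Csf2 stood at 2.81, 2.59, 0.668, 0.976 and 4.89 CPM in vehicle and at 0.461 to 2.17 CPM in treated libraries, with -1.27 ± 0.58 (edgeR adjusted p = 0.332). Its groups also overlapped, and without Vehicle 5 it did not meet the rule (-0.83).

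Ligands that did not meet the call rule spread to both sides of 0. Pdgfa (44.6 ± 13.3 against 25.1 ± 10.8 CPM, SD, n = 5 per group) had a log2 fold change of -0.83 ± 0.36 and an unadjusted p under 0.05 (edgeR adjusted p = 0.315), but its fold was under 2. Flt3l had -0.94 ± 0.45 (edgeR adjusted p = 0.347) and stood at 30.5 CPM in Vehicle 5 against 7.94 to 9.03 CPM in the other vehicle libraries. Without Vehicle 5 the log2 fold change of Flt3l was -0.33. Csf3, which encodes G-CSF, had -0.79 at 0.225 to 2.45 CPM against at most 1.08 CPM. Pdgfb had 0.61, Kitl 0.10 and Pdgfd -0.24. Il3 (0.172 to 0.585 CPM in vehicle, 0 to 0.142 CPM in treated libraries) and Il5 (up to 0.980 CPM) were under the filter and were not tested. The alpha chains that pair with the beta chains, Il3ra and Il5ra, were low, at 5.15 ± 1.81 and 2.75 ± 0.689 CPM in vehicle, and had log2 fold changes of -0.39 and 0.30 without a call.

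Of 20 genes that act directly downstream of these receptors all passed the filter, 18 had a log2 fold change above 0, beside 48.4% of all genes tested, and the median was 0.48. The call rule was met by 1 in each direction, beside 4.01% of all tested genes called higher and 6.7% called lower. Plcg2, phospholipase C gamma, was called higher at 81.3 ± 20.6 against 174.7 ± 97.2 CPM (log2 fold change 1.10 ± 0.40, edgeR adjusted p = 0.280). Ptpn11, the phosphatase SHP2, was called lower at 84.9 ± 56.0 against 32.4 ± 9.73 CPM (-1.39 ± 0.43, edgeR adjusted p = 0.280), with 176 CPM in Vehicle 2. The 3 most abundant, the phosphatases Ptpn6 and Inpp5d and the kinase Lyn, had log2 fold changes of 0.50, 0.78 and 0.89, and Lyn passed the threshold on p but not that on fold (edgeR adjusted p = 0.318). Without Vehicle 5, Plcg2 (1.25) and Ptpn11 (-1.32) met the rule again, and Stat3 (1.16), Shc1 (1.05), Inpp5d (1.01) and Sh2b3 (1.34) were called higher as well. That fit called 12.9% of all genes. The summed level of these 20 genes was highest in GW2580 3, as were Csf3r, Csf2rb and Csf1r.

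Of 6 feedback and target genes of STAT3 and STAT5, 1 was called, the cytokine-induced inhibitor Cish, as lower, and 2 had a log2 fold change above 0 (median -0.04). Over all tested genes 6.7% were called lower and 48.4% lay above 0. Cish stood at 121 CPM in Vehicle 5 and 5.57 to 6.37 CPM in the other vehicle libraries, against 4.31 to 12.3 CPM in treated libraries, and its log2 fold change was 0.09 without Vehicle 5. Socs3, the STAT3 feedback inhibitor and the most abundant of the list, stood at 448 ± 95.1 against 738 ± 466 CPM (log2 fold change 0.72 ± 0.43, edgeR adjusted p = 0.438). Bcl2l1 (-0.08) and Pim1 (0.18) were near 0.

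A difference between males and females in the response to GW2580 was tested as an interaction term. It had an unadjusted p under 0.05 for 0 of the 8 receptors in edgeR, beside 2.52% of all tested genes. Vehicle 5, the outlying library of Kit, came from a female. With 2 males per group the design allows only a coarse test.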

How the data were processed

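CD11b+ cells were taken from 10 mouse brains by Percoll gradient and magnetic selection, and RNA was made into SMART-Seq v4 cDNA and sequenced as read pairs. Per the labels and methods, the authors used STAR to align trimmed reads to GRCm38 and featureCounts to count unique fragments per RefSeq gene. The deposited counts are raw whole numbers without normalization, and their header names version 1.6.3, exons and no strand. Gene symbols came from the RefSeq GRCm38.p6 table.

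Genes were kept where at least 3 libraries exceeded 1 CPM, and counts were scaled by TMM (factors 0.691 to 1.61) and tested with edgeR 4.0.16 (glmQLFit, glmQLFTest, R 4.3.3) with treatment as the only term, after the study's methods. A call required a fold over 2 and p under 0.05, and adjusted p-values are Benjamini-Hochberg over all 28419 genes. SE is the log2 fold change divided by the square root of F. Two-sided exact permutation tests and correlations used log2 CPM with a prior count of 2. limma 3.58.1 (voom) and DESeq2 1.42.0 were alternatives. Sequences were read with Biopython 1.88. The procedure was tested on simulated data.

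The receptors, gene lists and tests were chosen with earlier results of these data known. Named beside the receptors and Csf1r are all ligands and alpha chains, the 3 most abundant and any called genes of the signalling lists, the leading, called or defining genes of marker lists, and the 2 genes most correlated with each receptor. Some genes that this rule selects are not reported here. Same-numbered mice did not deviate together (correlations -0.392 to 0.135), so mice were not paired.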

Additional observations from a re-analysis of the deposited data

Results flagged for a closer look

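In 4 of the 16 sets of 5 values (8 receptors in 2 groups), the highest library stood apart by more than Dixon's 95% limit for the gap over the range. About 1 in 20 such sets is expected to do so by chance. All 4 were the same library, Vehicle 5. Kit stood there at 29.7 CPM with a gap of 0.985 of the range, Pdgfra at 31.5 CPM with 0.953, Pdgfrb at 26.7 CPM with 0.877 and Csf2rb2 at 38.1 CPM with 0.764. Of the 10 libraries Vehicle 5 also held the highest values of Tpsb2, Cma1, Col1a1, Olig2 and Cish, but not of every gene on the marker lists. Hdc, Fcer1a, Ms4a2 and Cspg4 were higher in other libraries. Gpr17, Lum and Rgs5 were lowest of all 10 libraries in Vehicle 5. The part of other cells in these 4 receptor values was not tested.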

How the results depend on the processing

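The count of 1 receptor called (Kit) became 0 with library size only, with limma-voom, with a glial and neuronal marker covariate, and with both Vehicle 2 and Vehicle 5 left out. It was also 0 by DESeq2, which gave no p for Kit (log2 fold change -1.43). The fit with the replicate block gave 0 receptors called (Kit -0.93, edgeR adjusted p = 0.459) and 2 of the surrounding genes. Leave-one-out fits gave 0 (without Vehicle 5) to 2 (Kit and Pdgfrb). Kit was below 0 in all 25 alternatives, from -1.56 to -0.45. Kit also lost its call, and Csf3r (1.01 and 1.07) became the 1 receptor called, with the share of reads on no annotated exon as covariate and, a choice made after seeing the data, with both Vehicle 5 and GW2580 5 left out, a fit that called 22.3% of all genes. The count of 5 ligand, partner and signalling genes became 3 by DESeq2, 1 by limma-voom, 3 with a sex covariate, 1 with the glial and neuronal covariate, 9 without Vehicle 5 and GW2580 5 (beside that 22.3% of all genes), and 3 to 6 by leave-one-out. The direction turned for Flt3 with library size only (0.16), and for Pdgfra without Vehicle 2 and 5 (0.0055). Leave-one-out values of Pdgfra ran from -0.727 to 0.0341 (without Vehicle 5), those of Csf2ra from -0.0846 (without GW2580 3) to 0.303, and those of Csf2rb2 from -0.438 to 0.276 (without Vehicle 5). For Csf2rb2 the direction also turned with library size only (0.0304), with the glial and neuronal covariate (0.0249), with the share of reads on no annotated exon as covariate (0.0056), without Vehicle 2 and 5 (0.19) and without Vehicle 5 and GW2580 5 (0.22). Where the alternative does not itself remove a library, the cause was not tested. Csf2rb stayed between 0.33 and 0.89 and Csf3r between 0.44 and 1.07, each with p under 0.05 in 5 of 25 alternatives. The sex by treatment term, run under the other scalings, filters and likelihood ratio test and by leave-one-out, called 0 receptors each time. Pdgfra, Pdgfrb, Kit and Csf2rb2 rested on 49 to 678 fragments per library.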
